A study of Saccharomyces cerevisiae with 21 samples.

Results

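TPO2 and TPO4 are the budding yeast (Saccharomyces cerevisiae) genes YGR138C and YOR273C, which encode related polyamine transporters of the plasma membrane. They were measured here as members of reporter protein pairs. The deposited tables name 62 pools of strains, of which 61 carry the name of a protein pair and 1 is called a reference without a protein-protein interaction. The 5 pools described here were chosen by name: HNM1_TPO2 and MID2_TPO2, and HNM1_TPO4, MID2_TPO4 and ERG11_TPO4. They hold 1805 of the 22382 combinations of pool and strain, and 1325 of the 15974 combinations that passed a minimum mean of 10 reads over the 20 libraries at 96 h. One more pool with TPO2, TPO1_TPO2, is given only for its counts.

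Polyamines are small cationic molecules that bind nucleic acids and are needed for growth, and cells keep their level narrow by synthesis, uptake and export. Both transporters belong to the drug:H+ antiporter family of the major facilitator superfamily and carry polyamines out of the cell, and the family as a whole is also known for resistance to unrelated toxic compounds. HNM1 (YGL077C) encodes the choline transporter of the plasma membrane, MID2 (YLR332W) a plasma membrane sensor of cell wall stress that signals to the cell wall integrity pathway, and ERG11 (YHR007C) the lanosterol demethylase of ergosterol synthesis, the enzyme that azole drugs such as fluconazole inhibit. In the assay, fragments of a reporter are fused to 2 proteins, and cells in which the fragments come together grow in methotrexate (MTX).

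Each pool was a mixture of barcoded strains named for the protein pair it carried. The strains come from a library with genetic variation across the genome, and a barcode in a chromosome marks each one. Barcodes were sequenced from genomic DNA, so the measure is the share of a strain among its pool's reads, and a strain can gain share because others lose it. The groups at 96 h had 10 µg/mL MTX in 5 media: no drug, 0.2 µM 5-FC (flucytosine, an antifungal pyrimidine), 100 µM fluconazole, 50 mM metformin (a biguanide) and 17.5 µM trifluoperazine (a phenothiazine). The matching groups without MTX were grown in the same 5 media. All were grown in minimal synthetic medium with glucose and leucine, passaged daily, and had 2 libraries each, called A and B; 1 library was taken at time 0. The labels do not say whether A and B were separate cultures, so p-values measure the spread between these libraries. The labels call the strains an in-house library, do not describe each strain's genotype, and do not say which reporter parts the reference pool carries.

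The 5 pools had 4767 to 608496 reads in a library at 96 h, with a median of 103744.5, and 23564 to 61372 reads at time 0. Both MID2 pools were shallowest in library A with MTX and no drug: MID2_TPO2 had 4767 reads there and 28588 in library B, and MID2_TPO4 had 5627 reads there and 52850 in library B. In ERG11_TPO4, library B without MTX in fluconazole stood apart, since strain 731 held 89.3% of the pool's reads there and 1.01% in library A. Values without these libraries, chosen after seeing the data, are given beside several of the results that rest on them.

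The 5 pools did not start alike, and the partner went with the starting makeup. At time 0 strain 476 led both MID2 pools, with 23.4% of reads in MID2_TPO2 and 20.5% in MID2_TPO4 (Wilson 95% intervals 23.0 to 23.9% and 20.2 to 20.9%). Strain 838 led the other 3 pools, with 13.0% in HNM1_TPO2, 12.6% in HNM1_TPO4 and 13.8% in ERG11_TPO4 (intervals 12.8 to 13.3%, 12.3 to 12.9% and 13.4 to 14.3%). Across strains, the log2 shares at time 0 correlated at r = 0.88 between the 2 MID2 pools (279 strains) and at r = 0.84 between the 2 HNM1 pools (204 strains). Between pools with different partners r lay between 0.58 and 0.65, also where both held TPO4. After 96 h in MTX without drug, r was between 0.74 and 0.87 for the pools with different partners, against 0.57 to 0.66 without MTX. These correlations are descriptions: strains of 1 pool share a library, and pools differ in depth.

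**Figure D1:**
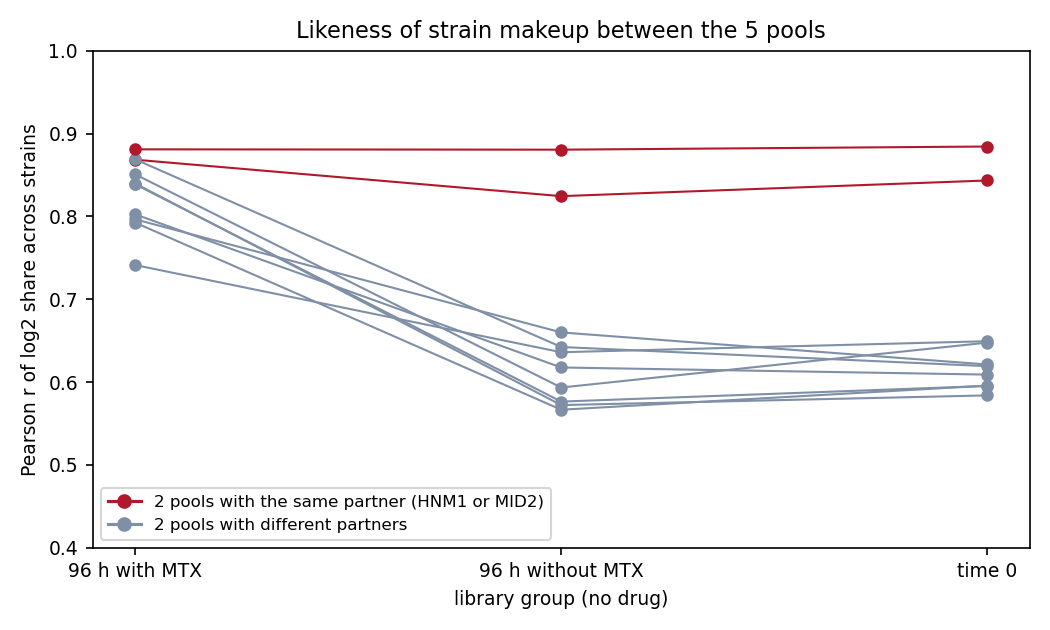
Pearson correlation of log2 share across strains (vertical axis, from 0.4 to 1) for each of the 10 pairs of the 5 pools, at 96 h with MTX, at 96 h without MTX and at time 0, all without drug. The 2 pairs with a common partner (red) stayed at 0.82 or above, and the 8 pairs with different partners (grey) were at 0.65 or below at time 0 and at 0.74 or above with MTX.

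With MTX, fewer strains made up each pool. The effective number of strains, computed as e raised to the Shannon entropy of a library's strain shares, was 23.2 ± 7.41 with MTX and 52.4 ± 10.2 without MTX in HNM1_TPO2 (SD, n = 10 libraries over the 5 media). It was 24.8 ± 5.64 with MTX and 59.0 ± 5.22 without in MID2_TPO2. In HNM1_TPO4 it was 19.1 ± 7.31 with MTX and 48.8 ± 7.69 without, and in MID2_TPO4 23.2 ± 4.75 with MTX and 61.3 ± 6.44 without. In these 4 pools the difference passed a two-sided permutation test, with p-values adjusted over the 62 pools of 1.1e-04 in 3 of them and 0.0002 in HNM1_TPO2. In all pools together, 60 of the 62, or 96.8%, passed.

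ERG11_TPO4 was 1 of the 2 pools that did not pass. It held 23.8 ± 8.84 effective strains with MTX and 47.3 ± 17.6 without (n = 10 each, adjusted permutation p = 0.12). Without MTX its libraries lay between 2.31 and 66.4, and the lowest was library B in fluconazole. Without that library the log2 difference was -1.20, against -0.75 with it, and the permutation p, not adjusted over pools, was 4.3e-05. That alternative was chosen after seeing the data.

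**Figure D2:**
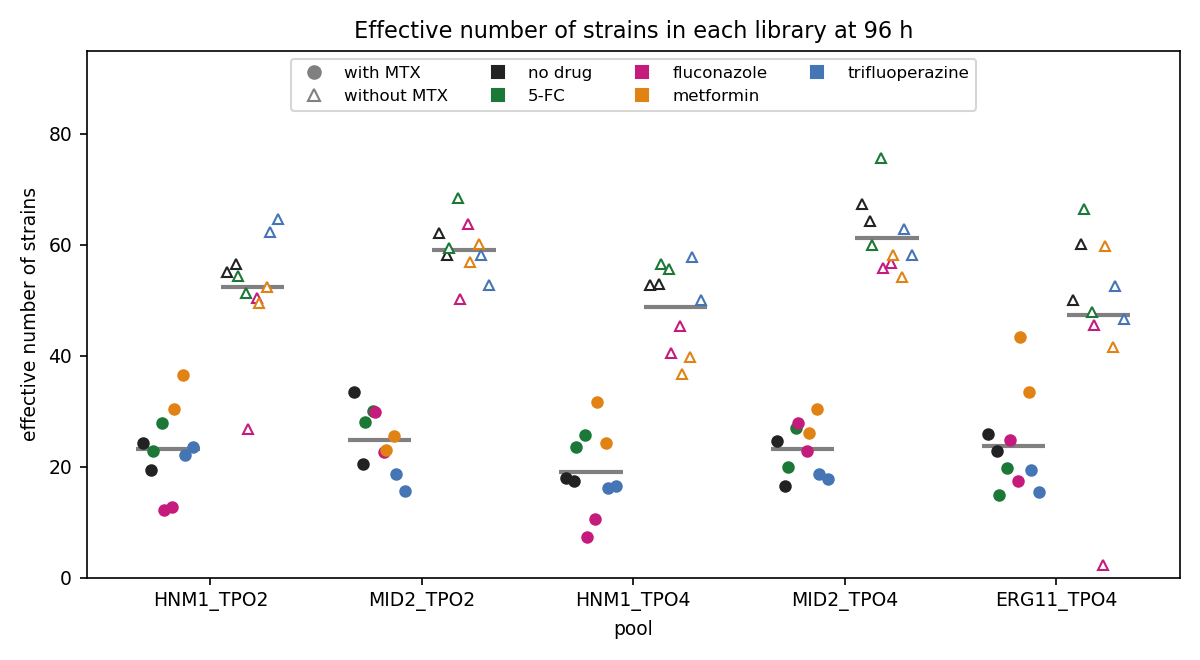
Effective number of strains (vertical axis, from 0) in each library at 96 h for the 5 pools, with MTX (filled circles) left of without MTX (open triangles). Colours mark the medium and grey lines the mean of 10 libraries. The groups do not overlap in MID2_TPO2, HNM1_TPO4 and MID2_TPO4, and ERG11_TPO4 holds 1 library without MTX at 2.31.

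The paralogs were compared in the same way with a shared partner. With HNM1 and MTX, TPO2 left more effective strains than TPO4 (ratio 1.25, higher in 8 of 10 libraries, exact two-sided sign-flip permutation p = 0.0078, adjusted over the 4 comparisons 0.031). With HNM1 and no MTX the ratio was 1.06 (adjusted permutation p = 0.42, higher in 7 of 10). With MID2 the ratio was 1.06 with MTX and 0.96 without MTX (adjusted permutation p = 0.42 for both, higher in 5 and in 2 of 10). The difference between the partners in this ratio was not tested. The 10 libraries are A and B in 5 media, and each paralog has 1 pool per partner. These p-values therefore measure the spread between libraries and not that between pools.

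Without drug, MTX changed the share of 655 of the 1325 tested combinations (49.4%) in the 5 pools, at a Benjamini-Hochberg adjusted p under 0.05 in edgeR's quasi-likelihood test over all 15974 combinations. Over all combinations 54.4% were called. Of the 655, 118 rose and 537 fell, and the rises were 8.91% of those tested against 7.31% over all combinations. HNM1_TPO2 had 141 calls in 245 strains and MID2_TPO2 had 127 in 307. Among the TPO4 pools, HNM1_TPO4 had 130 calls in 221 strains, MID2_TPO4 135 in 284 and ERG11_TPO4 122 in 268. Without library A of the MTX group, which was shallow in the MID2 pools, fewer strains rose in each of the 5 pools. That held also in HNM1_TPO2, HNM1_TPO4 and ERG11_TPO4, where the library had 122222, 98325 and 190692 reads. A fit with a library left out has fewer samples, so the part that low depth plays was not tested. TPO1_TPO2, the other pool with TPO2, had 149 calls in 243 strains.

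The split into rises and falls depends on the scaling, because shares sum to a whole. Scaled to the pool's total reads, the median MTX effect over all combinations was -2.04 on the log2 scale, and with TMM scaling within each pool it was -0.79. Under that scaling 216 of 687 calls in the 5 pools were rises, and with TMM over whole libraries 176 of 617. Against the median of all combinations, the pool medians on the first scale lay higher, at -1.54 in HNM1_TPO2, -1.19 in MID2_TPO2, -1.82 in HNM1_TPO4, -1.43 in MID2_TPO4 and -0.86 in ERG11_TPO4. Without the shallow library A of the MTX group, the medians of MID2_TPO2 and MID2_TPO4 were -1.86 and -2.62, against -2.28 over all combinations, so that of MID2_TPO4 then lay lower. With TMM within pools they were -1.15 in HNM1_TPO2, -1.24 in MID2_TPO2, -0.55 in HNM1_TPO4, -0.72 in MID2_TPO4 and 0.43 in ERG11_TPO4. Both TPO2 pools then lay below the median of all combinations. Changes below are changes of share unless the scaling is named.

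The strains at the top of the MTX cultures were few. Strain 1069 led HNM1_TPO2 without drug, with 26.1% and 22.0% of reads with MTX, against 3.72% and 3.72% without MTX (log2 change 2.69 ± 0.48 SE, adjusted p = 1.1e-04). In MID2_TPO2 it held 2.43% and 2.99% with MTX, against 0.650% and 0.849% without (log2 change 1.86, adjusted p = 0.0075). In HNM1_TPO4 it held 13.6% and 9.13% with MTX, against 3.66% and 3.00% without (log2 change 1.77, adjusted p = 0.0023). It was not called in MID2_TPO4 or ERG11_TPO4 without drug, with log2 changes of 0.74 and 0.73 (adjusted p = 0.31 and 0.45). In both TPO2 pools strain 1069 was called higher in all 5 media, and no other strain of those pools was. Tested directly without drug, its MTX effect was not called different between TPO2 and TPO4 with either partner. The TPO2 minus TPO4 differences were 0.92 with HNM1 and 1.12 with MID2 on the log2 scale.

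Strain 838 led the other 4 pools with MTX and no drug, and its rise passed in 3 of the 5. With TMM within pools that in MID2_TPO2 was lost (adjusted p = 0.060) and that in ERG11_TPO4 gained (0.022), and with TMM over whole libraries those in both MID2 pools were lost (0.61 and 0.30). Without the shallow library A of the MTX group, that in MID2_TPO4 was lost (log2 change 1.47, adjusted p = 0.062). It held 34.8% and 26.0% in MID2_TPO2 with MTX, against 6.75% and 12.9% without (log2 change 1.63, adjusted p = 0.0057). HNM1_TPO4 had 31.1% and 36.4% with MTX, against 10.6% and 8.72% without (log2 change 1.80, adjusted p = 0.012). MID2_TPO4 had 39.9% and 30.2% with MTX, against 11.7% and 10.1% without (log2 change 1.68, adjusted p = 0.011). In ERG11_TPO4 it held 36.1% and 40.2% with MTX and already 25.3% and 19.2% without (log2 change 0.78, adjusted p = 0.37). In HNM1_TPO2 it held 16.2% and 27.1% with MTX, against 16.3% and 10.8% without, and the groups overlapped.

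**Figure D3:**
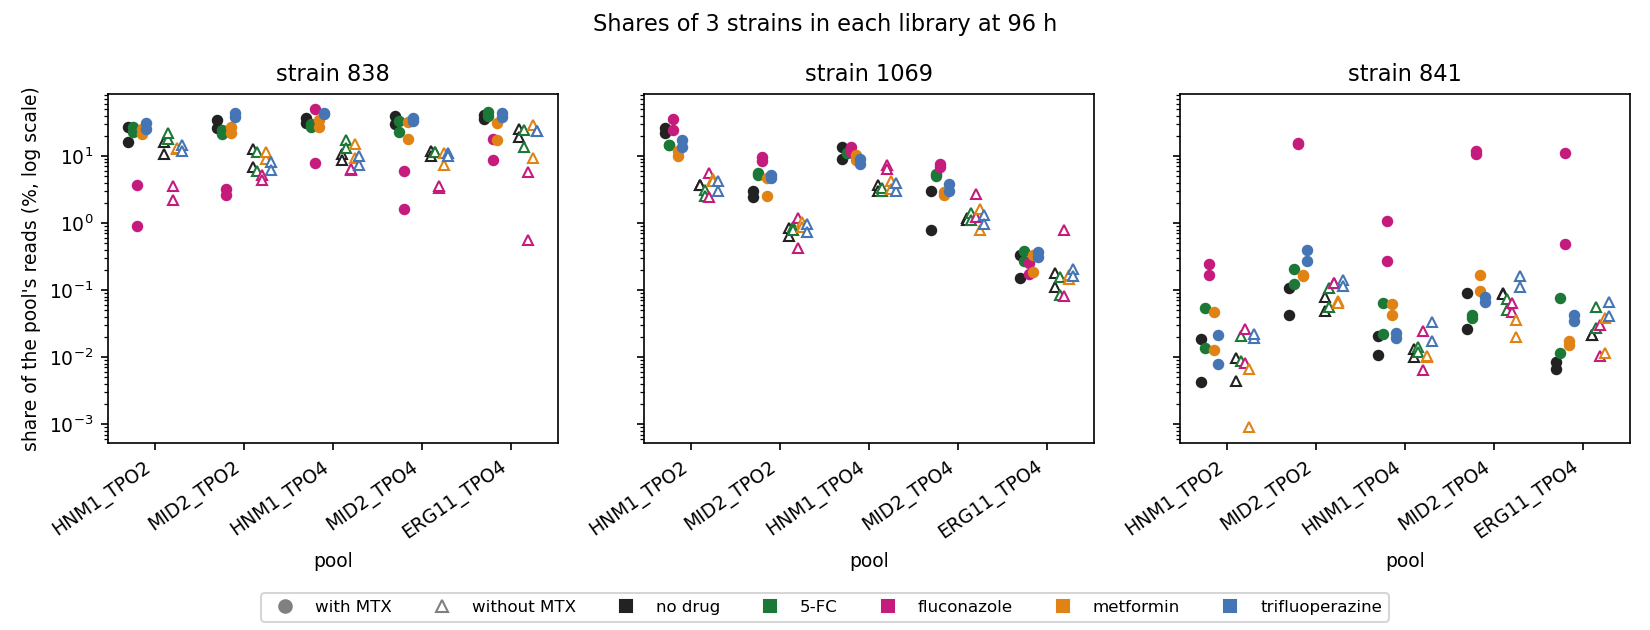
Share of the pool's reads (log axis, %) of strains 838, 1069 and 841 in every library at 96 h, with MTX (filled circles) left of without MTX (open triangles), coloured by medium. Strain 1069 is highest in HNM1_TPO2 and lowest in ERG11_TPO4, and strain 841 reaches 15.5% in MID2_TPO2, 12.0% in MID2_TPO4 and, in 1 library, 10.99% in ERG11_TPO4 with MTX in fluconazole.

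The largest rises among strains of at least 0.5% of reads in a group differed from pool to pool. In HNM1_TPO2, strain 350 had 1.78% and 1.20% of reads with MTX, against 0.0993% and 0.124% without (log2 change 3.74 ± 0.67, adjusted p = 1.1e-04). After it came strains 1069 and 713, the second of these at 2.80% and 2.53% with MTX against 0.478% and 0.355% without. In MID2_TPO2, strain 931 had 3.59% and 1.23% with MTX, against 0.0851% and 0.132% without (log2 change 4.45 ± 0.94, adjusted p = 5.0e-04). Strains 740 and 89 followed there, with log2 changes of 4.11 and 3.58.

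In HNM1_TPO4, strain 972 led with 7.02% and 5.12% with MTX, against 0.359% and 0.292% without (log2 change 4.22 ± 0.59, adjusted p = 1.0e-05). It was also the 1 strain of HNM1_TPO4 called higher in all 5 media. Strains 468 and 599 followed, with log2 changes of 4.18 and 2.77. In MID2_TPO4, strains 862, 756 and 649 had log2 changes of 3.83, 3.36 and 2.72. Without the shallow library A, strain 862 was no longer called (1.82, adjusted p = 0.15). In ERG11_TPO4, strains 709, 400 and 1020 had log2 changes of 2.64, 2.61 and 2.55, and the first of these lay at the threshold (adjusted p = 0.050). None of these 15 strains stood in the list of a second pool. Each list holds only 3 strains, so this does not show that a rise was confined to 1 pool. Strain 89 of the MID2_TPO2 list had log2 changes of 3.16 in HNM1_TPO2 and 3.72 in HNM1_TPO4. Strain 740 of the same list had -3.07 in HNM1_TPO2 and 2.3 in HNM1_TPO4.

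The largest fall was of strain 406 in both HNM1 pools and of strain 798 in both MID2 pools. Strain 406 had no read with MTX in HNM1_TPO2, against 0.595% and 0.658% without, which puts it at least 455-fold lower against a floor of 3 reads over the group. It had no read with MTX in HNM1_TPO4, against 0.758% and 1.19% without, at least 501-fold lower. Strain 798 had no read with MTX in MID2_TPO2, against 1.85% and 1.22% without (at least 171-fold lower). In MID2_TPO4 it had none with MTX, against 1.18% and 1.68% without (at least 279-fold lower). In ERG11_TPO4 the largest falls were of strains 959 and 475, with log2 changes of -9.92 and -9.42, and both still had reads with MTX. The remaining ones were strain 132 in HNM1_TPO2, 843 in MID2_TPO2, 796 in HNM1_TPO4 and 992 in MID2_TPO4.

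Strains that were large without MTX were among those that fell. These strains were chosen after their values were seen. Strain 475 held 0.0229% and 0.00942% with MTX in HNM1_TPO2, against 10.5% and 13.0% without. In HNM1_TPO4 it held 0.00915% and 0.0196% with MTX, against 16.1% and 15.6% without (log2 change -10.14, adjusted p = 1.5e-07). Strain 476 held 0.0355% and 0.00757% with MTX in MID2_TPO4, against 7.67% and 14.6% without (log2 change -9.70, adjusted p = 1.2e-06). In MID2_TPO2 the MTX libraries were unlike for strain 476, at 1.49% in the shallow library A and no read in B, against 9.02% and 9.54% without MTX. Its log2 change was -3.70 with library A and -16.52 without it, and the second rests on a count of 0 and is no bound.

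Of the 184 strains tested in all 5 pools, 44 fell in every pool and 1 rose in every pool without drug. The one that rose was strain 525. It held 3.10% and 2.40% with MTX in HNM1_TPO2, against 0.846% and 0.798% without, and 6.90% and 7.60% with MTX in HNM1_TPO4, against 1.24% and 1.31% without. Its log2 changes were 1.74 in HNM1_TPO2, 2.44 in MID2_TPO2, 2.51 in HNM1_TPO4, 3.20 in MID2_TPO4 and 2.08 in ERG11_TPO4, with adjusted p from 8.9e-04 to 0.044. Without the shallow library A of the MTX group, strain 525 was not called in MID2_TPO2 (2.12, adjusted p = 0.054), no strain rose in all 5 pools and 37 fell. Of the 44, strains 406 and 705 fell most. Matching counts over other pools are not given here, so these counts have no background beside them. Over the 324 strains tested in at least 1 pool, 10 rose in one of the pools and fell in another.

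The direct test of TPO2 against TPO4 asked, for each strain, whether the MTX effect differed between 2 pools that share a partner. Without drug, 21 of 204 strains (10.3%) differed with HNM1 and 6 of 279 (2.15%) with MID2. Over all 223 pairs of pools that share a protein, 8.09% of 51648 comparisons were called, and 65 pairs had a higher percentage than the HNM1 pair and 199 a higher one than the MID2 pair. With HNM1 the MTX effect was higher with TPO2 in 11 strains and lower in 10. With MID2 it was higher with TPO2 in all 6. With TMM scaling within pools, 9 of 30 calls over both partners were higher with TPO2, against 17 of 27 as scaled here.

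Of the strains called higher with TPO2 in the HNM1 pools, 3 are described, those with the largest differences among strains of at least 0.5% of reads in a group. Strain 320 held 4.77% and 4.74% with MTX in HNM1_TPO2, against 1.48% and 2.02% without. In HNM1_TPO4 it held 0.269% and 0.272% with MTX, against 1.35% and 1.74% without. It thus rose with TPO2 (log2 change 1.44, adjusted p = 0.030) and fell with TPO4 (-2.51, adjusted p = 0.0020), a difference of 3.95 ± 0.84 (adjusted p = 0.0026). Strains 837 and 7 had differences of 4.74 and 4.05 (adjusted p = 0.0091 and 0.042), and with TMM within pools that of strain 7 was no longer called (3.10, adjusted p = 0.11). Neither was called in HNM1_TPO2, and both fell in HNM1_TPO4.

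In the other direction, strain 468 held 0.301% and 0.324% with MTX in HNM1_TPO2, against 0.171% and 0.275% without. In HNM1_TPO4 it held 2.17% and 3.22% with MTX, against 0.161% and 0.137% without, so its rise was called with TPO4 and not with TPO2. The difference was -3.69 ± 0.81 (adjusted p = 0.0036). Strain 936 fell with TPO2 (log2 change -1.60, adjusted p = 0.026) and rose with TPO4 (2.28, adjusted p = 0.0024), a difference of -3.88. Strain 60 fell with TPO2, to 0.0466% and 0.0293% with MTX against 1.30% and 0.589% without. With TPO4 it held 1.00% and 0.666% with MTX, against 1.07% and 0.689% without, and the difference was -4.55 (adjusted p = 0.0016).

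**Figure D4:**
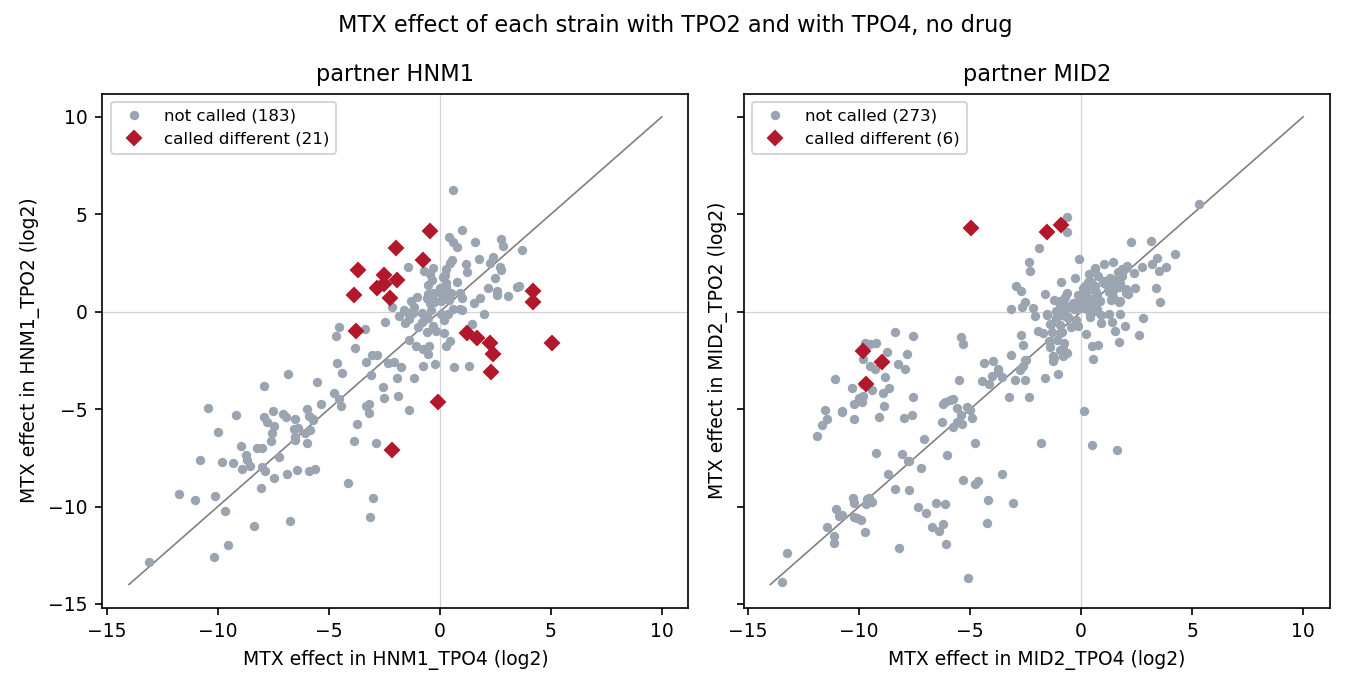
MTX effect (log2 share with MTX over without MTX, no drug) of each strain with TPO2 (vertical axis) and with TPO4 (horizontal axis), for partner HNM1 (left) and MID2 (right). Red diamonds are the 21 and 6 strains whose effects differed, and the grey line marks equal effects.

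With MID2 the libraries with MTX were unlike for strains 187, 739 and 984, the 3 described here of the 6 called. Strain 187 had 68 reads (1.43%) in the shallow library A of MID2_TPO2 with MTX and 1 read (0.00350%) in B, against 8 and 38 reads without MTX. Strain 739 had 28 and 4 reads with MTX there, and strain 984 had 13 and 4. In MID2_TPO4 with MTX each of the 3 strains had 0 reads in A and 1 in B. Without library A of the MTX group, 2 strains were called with MID2, 1 of them higher with TPO2, and 10 over both partners. The differences of strains 187, 739 and 984 were then 1.55, 3.37 and 3.17, against 9.30, 7.80 and 6.42 with it, and none of the 3 was called (adjusted p = 0.85, 0.41 and 0.34). Over both partners, 12 strains were called without library B of the MTX group, and 6 and 5 without library A and without library B of the group without MTX. For strains 740 and 931, also among the 6, both MTX libraries of MID2_TPO2 lay above both without MTX. Strain 740 held 0.923% and 0.360% with MTX, against 0.0341% and 0.0384% without. Strain 931 held 3.59% and 1.23% with MTX, against 0.0851% and 0.132% without. Strain 476, also called, is described above. Whether the shallow library accounts for the 6 calls was not tested.

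The differences between TPO2 and TPO4 were then set side by side for the 2 partners. Of the 19 strains called with HNM1 that were also tested with MID2, 9 had the same sign with MID2. Strains 740 and 984, the 2 called with both partners, had opposite signs. Strain 984 had a difference of -4.92 ± 1.04 with HNM1 and 6.42 ± 1.63 with MID2 (adjusted p = 0.0026 and 0.011). Strain 740, named after its values were seen, had a difference of -5.37 with HNM1 and 5.64 with MID2. Across the 196 strains tested with both partners, the TPO2 minus TPO4 differences correlated at r = -0.23 without drug and between -0.18 and 0.05 in the 4 drugs, and 50.0% had the same sign without drug. Strain 60 had a difference of -3.80 ± 1.27 with MID2, of the same sign as with HNM1 (adjusted p = 0.058).

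Swapping the partner with TPO2 or TPO4 held fixed gave counts of a like size. HNM1_TPO2 and MID2_TPO2 differed in 15 of 237 strains (6.33%), 2 higher and 13 lower with HNM1. HNM1_TPO4 and MID2_TPO4 differed in 11 of 210 (5.24%). ERG11_TPO4 differed from HNM1_TPO4 in 15 of 203 and from MID2_TPO4 in 6 of 247. Without library A of the MTX group, the HNM1 against MID2 counts were 4 with TPO2 and 3 with TPO4.

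**Figure D5:**
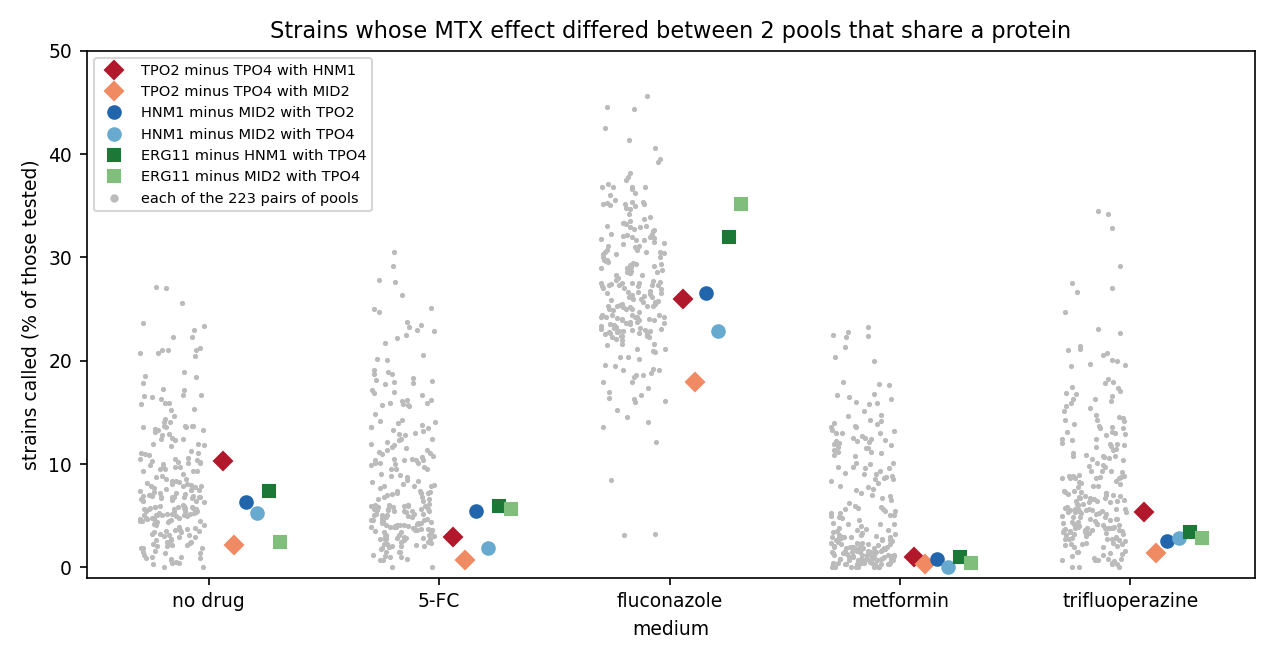
Strains whose MTX effect differed between 2 pools that share a protein, as a percentage of those tested (vertical axis), in each medium. Grey dots are the 223 pairs of pools and coloured symbols the 6 pairs within the 5 pools. In fluconazole both ERG11 pairs are above 32%, and the MID2 pair of TPO2 and TPO4 is at 17.9%.

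In fluconazole MTX changed 800 of the 1325 combinations, 60.4% against 57.0% over all combinations, and 147 rose (11.1% against 10.5%). With TMM within pools 255 of 713 calls were rises. ERG11_TPO4 had the lowest share of calls of the 5, 126 of 268 strains (47.0%), and HNM1_TPO4 the highest, 153 of 221 (69.2%). The MTX effect in fluconazole differed from that without drug in 328 combinations, 24.8% against 25.0% over all combinations. It was higher in 141 of them, 10.6% against 13.9%, and with TMM within pools in 193 of 324. ERG11_TPO4 had 41 higher and 17 lower, while the HNM1 and MID2 pools had more lower than higher. Under TMM scaling within pools, ERG11_TPO4 had 28 higher and 31 lower, and HNM1_TPO2, MID2_TPO2 and MID2_TPO4 had more higher than lower, so this contrast did not hold there.

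Strain 838 no longer led most pools in fluconazole. Strain 841 held 15.0% and 15.5% with MTX in MID2_TPO2, against 0.128% and 0.127% without (log2 change 6.90 ± 0.71, adjusted p = 5.5e-07). In MID2_TPO4 it held 10.7% and 12.0% with MTX, against 0.0463% and 0.0645% without (log2 change 7.68 ± 0.76, adjusted p = 3.7e-07). In HNM1_TPO2 it held 0.166% and 0.244% with MTX, against 0.00830% and 0.0258% without, and its rise there was smaller than in MID2_TPO2 by 3.28 ± 1.11 on the log2 scale (adjusted p = 0.027). In ERG11_TPO4 it held 0.479% in library A and 10.99% in B with MTX, so these libraries were unlike. Without drug strain 841 was not called in any of the 5 pools, with log2 changes from -1.50 to 0.74.

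In fluconazole 6 strains rose in all 5 pools with MTX, named here after their values were seen: 545, 666, 689, 841, 972 and 983. For strain 972 the shares with MTX were 9.81% and 10.9% in HNM1_TPO2, against 0.129% and 0.396% without. In HNM1_TPO4 it held 11.9% and 34.5% with MTX, against 0.588% and 0.710% without. Strain 983 had log2 changes of 5.04 in HNM1_TPO2, 7.44 in MID2_TPO2, 5.50 in HNM1_TPO4, 7.34 in MID2_TPO4 and 8.01 in ERG11_TPO4. A further 36 strains fell in all 5 pools. Without library B of the group without MTX, strain 972 was not called in ERG11_TPO4 (1.75, adjusted p = 0.064), which left 5 that rose in all 5 pools, and 27 fell. HNM1_TPO4 was led by strain 838 at 49.5% in library A but 7.93% in B with MTX, against 6.12% and 6.28% without. Rises of these strains are not shown to be particular to the 5 pools. With MTX in fluconazole, the reference pool was led by strain 972 in library A (41.6%) and by strain 983 in B (36.0%). Matching counts of rises and falls over other pools are not given here, so those above have no background beside them.

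In ERG11_TPO4, whose reporter pair includes ERG11, strain 409 led with MTX in fluconazole. It held 12.8% and 23.5% with MTX, against 2.92% and 0.0710% without (log2 change 3.60 ± 1.06, adjusted p = 0.0067). In MID2_TPO2 and MID2_TPO4 strain 409 fell (log2 changes -2.56 and -3.00, adjusted p = 0.011 and 9.6e-04), and in both HNM1 pools it was not called. Its MTX effect with ERG11 was above that with MID2 by 6.60 ± 1.31 on the log2 scale (adjusted p = 3.5e-04) and above that with HNM1 by 3.88 ± 1.22 (adjusted p = 0.017). Without library B of the group without MTX, its change in ERG11_TPO4 was 2.64 (adjusted p = 0.018), its difference from MID2 4.94 (adjusted p = 0.0022) and that from HNM1 1.89, no longer called (adjusted p = 0.18). Strain 838 held 8.83% and 17.9% with MTX in ERG11_TPO4, against 5.86% and 0.549% without (log2 change 2.06, adjusted p = 0.021), and without that library it was not called (1.19, adjusted p = 0.12). The lower value without MTX of both strains came from library B, where strain 731 held 89.3%.

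The MTX effect in ERG11_TPO4 differed from that in HNM1_TPO4 in 65 of 203 strains in fluconazole (32.0%) and from that in MID2_TPO4 in 87 of 247 (35.2%), against 27.1% over all pairs. It was higher with ERG11 in 57 and 69 of these. Without library B of the group without MTX the counts were 56 and 69, and with TMM within pools 53 and 69, of which 36 and 34 were higher with ERG11. Strain 1069 was among those lower with ERG11 than with MID2, by 2.89 ± 1.01 on the log2 scale (adjusted p = 0.031).

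Between TPO2 and TPO4 in fluconazole, 53 of 204 strains differed with HNM1 (26.0%) and 50 of 279 with MID2 (17.9%), against the same 27.1%. With TMM within pools 43 of 106 calls over both partners were higher with TPO2, against 66 of 103 as scaled here. Fitted on the fluconazole libraries alone, none of these was called. Of the 12 strains called with both partners, 6 had the same sign, and strains 7, 459 and 522 had the largest differences among these. For strain 522 TPO2 was higher than TPO4 by 4.56 ± 1.75 with HNM1 and 7.88 ± 1.90 with MID2 (adjusted p = 0.049 and 0.0023). For strain 7 TPO2 was lower than TPO4, with differences of -5.01 with HNM1 and -5.16 with MID2 (adjusted p = 0.0061 and 0.0037). With MID2 the libraries went opposite ways for strain 7, at -8.42 in A and 1.16 in B. That strain had been higher with TPO2 in HNM1 without drug. The MTX libraries of these strains held few reads, from 0 to 30 for strains 7 and 522 in the TPO2 pools.

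In metformin MTX changed fewer combinations, 416 of 1325, or 31.4% against 35.1% over all combinations, and 44 rose (3.32% against 5.07%). With TMM within pools 172 of 363 calls were rises. ERG11_TPO4 had 40 calls in 268 strains (14.9%) and MID2_TPO2 146 in 307 (47.6%). The MTX effect differed from that without drug in 178 combinations, 13.4% against 11.8%, and was higher in 157 of them, 11.8% of those tested against 10.8%. MID2_TPO2 went the other way, with 14 calls of which 10 were lower. Its effect without drug includes the shallow library A of the MTX group. The median MTX effect without drug in MID2_TPO2 was -1.19 with that library and -1.86 without it, against -1.69 in metformin. The split of its calls without that library, or with TMM within pools, is not given here. TPO2 and TPO4 differed in 2 of 204 strains with HNM1 and 1 of 279 with MID2, against 5.61% over all pairs.

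In 5-FC MTX changed 666 combinations, 50.3% against 49.7%, with 66 rises (4.98% against 7.51%), and with TMM within pools 267 of 797 calls were rises. In trifluoperazine it changed 685, 51.7% against 51.7%, with 89 rises (6.72% against 6.39%), and with TMM within pools 243 of 736. Strain 838 led all 5 pools with MTX in both media, at 38.0% and 43.4% in MID2_TPO2 and 44.4% and 41.8% in HNM1_TPO4 in trifluoperazine. In the same medium without MTX it held 8.21% and 6.22% in MID2_TPO2 and 7.31% and 9.94% in HNM1_TPO4. TPO2 and TPO4 differed in 6 strains with HNM1 and 2 with MID2 in 5-FC (8.56% over all pairs). In trifluoperazine they differed in 11 and 4 (8.42% over all pairs).

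For 5-FC no combination in the 5 pools had an MTX effect that edgeR called different from that without drug, against 0.0939% over all combinations. At an unadjusted p under 0.05 there were 121 of 1325, and DESeq2 called 13. For trifluoperazine none was called in the 5 pools and 0.0% over all combinations, with 89 of 1325 at an unadjusted p under 0.05 and 7 by DESeq2.

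Across media, 50 of 245 tested strains fell in all 5 in HNM1_TPO2 and 70 of 307 in MID2_TPO2. For the TPO4 pools the counts were 47 of 221 in HNM1_TPO4, 61 of 284 in MID2_TPO4 and 18 of 268 in ERG11_TPO4. The matching share over all pools is not given here, so these counts have no background beside them. No strain rose in all 5 media in MID2_TPO4 or ERG11_TPO4. In every drug ERG11_TPO4 had the smallest percentage of calls of the 5 pools, from 14.9% in metformin to 47.0% in fluconazole, and without drug MID2_TPO2 had it, at 41.4%. The MTX effects of libraries A and B correlated less in ERG11_TPO4 in fluconazole (r = 0.50) and metformin (r = 0.62) than in the median pool (r = 0.70 and 0.82). Without drug they correlated at 0.70 in MID2_TPO2 and 0.75 in MID2_TPO4, against 0.89 in the median pool.

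Set against the reference pool without drug, 378 of 1279 combinations had another MTX effect, 29.6% against 26.6% over all pools, and 334 were higher (21.9% over all pools). All these comparisons share the reference pool's libraries. ERG11_TPO4 had 95 calls in 259 strains, HNM1_TPO2 80 in 236, MID2_TPO2 84 in 296, MID2_TPO4 72 in 274 and HNM1_TPO4 47 in 214. Without library A of the MTX group, MID2_TPO2 and MID2_TPO4 had 34 calls each. With TMM within pools 135 of 256 calls were higher than in the reference pool.

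By the correlation of MTX effects across strains without drug, HNM1_TPO4 was most like HNM1_TPO1 (r = 0.87, 196 strains), then PLM2_HNM1 and HNM1_ERG11 (r = 0.86 for both), so all 3 shared HNM1. MID2_TPO4 was most like MID2_PIN2 and HNM1_MID2 (r = 0.86 for both), then SRO9_DHH1 (0.85). MID2_TPO2 was most like PLM2_HNM1 (0.81), MID2_RSN1 (0.80) and HNM1_TPO4 (0.79), and HNM1_TPO2 most like SSH1_ERG11, ERV25_ERG5 and HNM1_ERG11 (0.84 each). ERG11_TPO4 was most like PMC1_CTR2, TPO1_TCB2 and SSH1_ERV25 (0.815, 0.815 and 0.812). The median over the other 61 pools lay between 0.72 and 0.79 for the 5 pools. Without drug, no paralog was the most alike pool of the other with the same partner. The TPO2 and TPO4 pools correlated there at 0.83 with HNM1 and 0.76 with MID2, and the MID2 value includes the shallow library A. With trifluoperazine these correlations were 0.85 with HNM1 and 0.90 with MID2, and with 5-FC 0.87 and 0.88. They were 0.72 and 0.77 with metformin, and 0.68 and 0.65 with fluconazole. The ranking of most alike pools is given here only without drug, so it does not settle how alike the paralogs were in the drugs.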

How the data were processed

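Barcode reads were counted in 20 libraries at 96 h and 1 at time 0. The deposited values are raw counts of reads per strain barcode and pool, per the file headers and the whole numbers they hold. The program that matched reads to barcodes is not given in the sources used here. The whole libraries held 5370053 to 10620612 reads at 96 h and 2412905 at time 0. Read counts carry no molecular identifiers, so intervals and floors cover counting error only. Gene names were matched to RefSeq locus tags, and no sequence or coordinate is printed.

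Groups were taken from the sample titles. Counts were fitted with edgeR 4.0.16 in R 4.3.3 (glmQLFit and glmQLFTest, 10 groups, Benjamini-Hochberg adjustment, threshold 0.05) over all pools, with a strain's offset the log of its pool's total reads in that library, and combinations with a mean under 10 reads left out. Strains present in both pools were stacked into a second table to test the difference of MTX effects between 2 pools, over 223 pairs that share a protein and, separately, against the reference pool. Standard errors were derived from the fitted change and its F statistic. The effective number of strains was compared on the log2 scale with 100000 permutations of the 20 libraries (MTX against no MTX) or with an exact sign-flip test over 10 libraries (TPO2 against TPO4). A strain with no read in either library of a group was set against a floor of 3 reads over the group. The scripts were tested on simulated data.

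Named strains are, per pool and medium, the one with the highest mean share with MTX. Without drug they are also, per pool, the 3 largest rises and 2 largest falls at a mean share of at least 0.5%, and the 2 strains with the largest median change among those called one way in all 5 pools. For TPO2 against TPO4 they are the 3 largest differences each way at that share and the 3 largest called with both partners, and for each drug the largest difference from no drug each way. The 3 most alike pools were named by correlation. Other strains are marked as chosen after their values were seen. The 5 pools, the rule and the lists were chosen with earlier results of these data known. Alternatives were other scalings, filters, DESeq2 1.42.0, fewer libraries in the fit, a replicate block and each library left out.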

Additional observations from a re-analysis of the deposited data

Results flagged for a closer look

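In 4 cases a strain's MTX effect in a drug differed from its effect without drug by the interaction term of the edgeR fit, and these were the largest such differences in each direction for fluconazole and metformin. Strain 258 in ERG11_TPO4 had a difference of 10.70 ± 2.37 on the log2 scale in fluconazole (adjusted p = 0.0029). With MTX it held no read in library A and 1.21% in library B, against 0.00517% and 0.00417% without MTX, so the libraries with MTX were unlike. Without library B of the MTX group the difference was -2.16 (adjusted p = 0.46).

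Strain 43_ref1 in MID2_TPO2 had a difference of -13.69 ± 4.04 in fluconazole (adjusted p = 0.019). It held 2 reads and 0 reads with MTX in fluconazole, against 0.465% and 0.903% without MTX. Without drug it had 1 read in the 4 libraries together, although it held 0.622% at time 0, so the size of the difference depends on fitted values for counts of 0.

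Strain 992 in MID2_TPO4 had a difference of 10.99 ± 2.00 in metformin (adjusted p = 0.0018). In metformin it held 0.0743% and 0.174% with MTX, against 0.564% and 0.636% without MTX. Without drug it had no read with MTX, against 1.36% and 1.06% without MTX, so the fitted difference is no bound.

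Strain 740 in MID2_TPO2 had a difference of -8.01 ± 1.43 in metformin (adjusted p = 0.0014). In metformin it held 0.00908% and 0.00252% with MTX, against 0.0677% and 0.0923% without MTX. Without drug it held 0.923% and 0.360% with MTX, against 0.0341% and 0.0384% without MTX, and in neither medium did the groups overlap.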

How the results depend on the processing

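The limits are 2 libraries a group, shares that sum to a whole, and shallow MID2 pools in library A with MTX and no drug. Of 205 recomputed values of the 36 main results, 153 kept their direction and side of the threshold or stayed within 1.5 times the count. With the libraries left out in turn, MTX calls in the 5 pools lay between 480 and 555 without drug, 714 and 757 in fluconazole, 554 and 575 in 5-FC, 507 and 599 in trifluoperazine, and 190 and 276 in metformin. In the same way, differences from no drug lay between 289 and 347 in fluconazole, 93 and 129 in metformin, and at 0 in 5-FC and trifluoperazine. TPO2 against TPO4 calls lay between 5 and 12 without drug, 1 and 6 in 5-FC, 74 and 98 in fluconazole, 2 and 3 in trifluoperazine and at 0 in metformin, with the count without drug below the full count of 27 whichever library was left out. Calls against the reference pool lay between 164 and 231. These fits have fewer samples. Without library A of the MTX group and no drug (chosen after seeing the data), TPO2 against TPO4 gave 2 calls with MID2, against 6 in full, and HNM1 against MID2 gave 4 with TPO2, against 15 in full, and 3 with TPO4, against 11. Against the reference pool MID2_TPO2 and MID2_TPO4 had 34 calls each, against 84 and 72 in full.

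A minimum mean of 50 reads left 441 MTX calls in 5-FC, 5 TPO2 against TPO4 calls in 5-FC, 1 in metformin and 9 in trifluoperazine, and 236 calls against the reference pool, from fewer features tested. With TMM over whole libraries there were 219 MTX calls in metformin, and differences from no drug numbered 181 in fluconazole and 63 in metformin. DESeq2 called 13 differences from no drug in 5-FC and 7 in trifluoperazine. With only the compared libraries in the fit there were 447 MTX calls in fluconazole, 10 and 105 differences from no drug in 5-FC and fluconazole, and TPO2 against TPO4 calls numbered 0 in fluconazole, 24 in 5-FC, 39 in trifluoperazine and 22 in metformin. The cause was not tested. The effective number of strains in ERG11_TPO4 differed by -0.33 without replicate A, by -1.18 without replicate B and by -1.20 without library B of fluconazole and no MTX (log2). In the HNM1 pools without replicate A and without replicate B, TPO2 against TPO4 gave 0.33 and 0.31 with MTX, where 5 pairs cannot pass. The values for Effective number of strains TPO2 against TPO4 with HNM1, without MTX were 0.18 and -0.00939, and neither passed. No other call on the effective number changed.

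Replicates share only a letter. With a replicate block the MTX calls were 639 without drug, 786 in fluconazole, 663 in 5-FC, 679 in trifluoperazine and 404 in metformin. TPO2 against TPO4 calls with it were 27 without drug, 102 in fluconazole, 8 in 5-FC, 15 in trifluoperazine and 3 in metformin. The deviations of libraries A and B with MTX and without MTX correlated between 0.004 and 0.092. For 81 results on single strains, 489 values under the other alternatives kept their call, 25 lost it and 20 gained it. Among the values with a library left out, 256 kept it, 65 lost it and 3 changed sign. With a library left out, strain 838 in ERG11_TPO4 in metformin lay between -0.25 and 1.38, not called in the fit of all libraries (0.34), and strain 258 there in fluconazole against no drug between -2.16 and 11.71.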
